A study of Mus musculus with 9 samples.

Results

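The 5 NADPH oxidase subunit genes Cybb, Cyba, Ncf1, Ncf4 and Rac2 are described here, out of 43432 Ensembl gene identifiers in the count table. They were picked by symbol, each matched 1 identifier, and all 5 passed the filter on low counts. They were chosen with their values in this comparison already known, so their levels and fold changes are given as a description, without a test.

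RNA was sequenced from cultured mouse Tregs (regulatory T cells), which express Foxp3 and restrain immune responses. CD62L-high Tregs were sorted, stimulated with beads carrying antibodies to CD3 and CD28, and grown with 2000 U/ml interleukin-2 to day 4. The source of the 4 Ezh2-deficient libraries was mice with Ezh2-fl/fl alleles, Foxp3-Cre-GFP and the reporter R26-LSL-RFP. The 5 WT libraries came from mice with the same Foxp3-driven Cre and the same red fluorescent reporter, 4 of them Ezh2-+/+ and 1 of them (WT replicate 1) Ezh2-fl/+, all C57BL/6. The sources used here state neither the age of the mice nor any pooling. The enzyme Ezh2 carries the histone H3 methyltransferase activity of a Polycomb complex that keeps genes silent.

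Phagocytes make superoxide with an enzyme whose catalytic core, encoded by Cybb, passes electrons from NADPH across a membrane to oxygen. Cyba encodes the small partner that stabilises this core. Ncf1 encodes the organiser that docks the cytosolic subunits on the membrane, Ncf4 a lipid-binding adaptor, and Rac2 the blood-cell Rac GTPase that switches the complex on. Loss of the core or of the organiser causes chronic granulomatous disease in humans. Rac2 also controls actin in lymphocytes, so its level is not a measure of the oxidase alone.

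Promoter sequences are shown for the subunits found in RefSeq's table (build GRCm38.p6), which matched 3 of 5 members, to let the level changes below be read beside the DNA at each start site. Each is the 250 bases before the annotated start, 5′ to 3′ on the gene's strand. Capitals mark matches, on either strand, to GAGGAA (the core bound by the myeloid factor PU.1), TTCNNNGAA (a palindromic element), GGGCGG (the GC box), TATAAA or CCAAT.
Ncf1 (chr5:134229626-134229875, minus strand): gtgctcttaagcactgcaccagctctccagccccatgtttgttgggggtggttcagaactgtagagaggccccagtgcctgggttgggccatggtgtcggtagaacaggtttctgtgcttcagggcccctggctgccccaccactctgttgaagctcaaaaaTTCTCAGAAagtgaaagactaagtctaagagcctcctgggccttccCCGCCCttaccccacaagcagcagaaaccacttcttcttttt
Cyba (chr8:122432941-122433190, minus strand): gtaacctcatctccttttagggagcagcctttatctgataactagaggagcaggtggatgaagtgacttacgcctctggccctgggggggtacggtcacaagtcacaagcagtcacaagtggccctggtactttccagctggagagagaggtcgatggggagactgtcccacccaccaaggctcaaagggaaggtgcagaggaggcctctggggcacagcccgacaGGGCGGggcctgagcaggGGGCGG
Cybb (chrX:9469325-9469574, minus strand): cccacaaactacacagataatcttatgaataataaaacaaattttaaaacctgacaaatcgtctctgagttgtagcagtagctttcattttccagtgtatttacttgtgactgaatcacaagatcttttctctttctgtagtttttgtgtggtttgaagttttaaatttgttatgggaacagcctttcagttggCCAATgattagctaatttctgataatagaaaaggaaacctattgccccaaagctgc

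The Ncf1 window held 1 TTCNNNGAA match, 88 to 80 bases before the start, and 1 GC box. The Cyba window held 2 GC boxes, and the Cybb window held 1 CCAAT match. No match overlapped another, and GAGGAA was in none of the 3 windows. Among 32851 promoter windows of that length, 23.3% held GAGGAA, 7.02% TTCNNNGAA, 32.7% GGGCGG, 12.4% TATAAA and 33.8% CCAAT. The CG dinucleotide occurred 2 times before Ncf1, 6 times before Cyba and 1 time before Cybb, against a median of 6 over all windows. These are matches of letters, and binding was not measured.

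The Ezh2-deficient libraries held 33718125 to 62201921 counts and the WT libraries 32469450 to 59796319. Levels are library-scaled counts (CPM, with library sizes set by edgeR's trimmed mean of M-values). Ezh2 itself was at 153 to 167 CPM in the Ezh2-deficient libraries, against 234 to 360 CPM in the WT libraries. These are sums over the gene, and transcripts lacking only the floxed exons still count. The Treg list (Cd3d, Cd3e, Cd4, Foxp3, Il2ra, Ctla4 and Ikzf2) summed to 9750 to 10953 CPM in Ezh2-deficient libraries, against 8949 to 9761 CPM in WT libraries. Il2ra made up most of it, at 5595 to 6745 CPM against 5238 to 6031 CPM. Of the 7 genes edgeR's test called 1, Foxp3, higher (log2 fold change 0.30, adjusted p = 0.0313). Foxp3 was at 1647 to 1968 CPM in Ezh2-deficient and 1293 to 1542 CPM in WT libraries. Across the table, edgeR's quasi-likelihood test called 3001 of 13685 tested genes (adjusted p threshold 0.05). That is 21.9% of them, with 13.1% higher and 8.8% lower.

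Ncf1, the organiser gene, was the subunit whose level differed most between the genotypes. It stood at 27.6, 36.2, 34.2 and 27.1 CPM in Ezh2-deficient replicates 1 to 4. WT replicates 1 to 5 had 52.7, 68.6, 96.9, 79.8 and 67.9 CPM. Every Ezh2-deficient library was below every WT library. The group means were 31.3 ± 4.61 CPM (SD, n = 4) in Ezh2-deficient and 73.2 ± 16.4 CPM (SD, n = 5) in WT Tregs. Expressed as WT over Ezh2-deficient this is 2.34-fold, and the log2 fold change of Ezh2-deficient over WT was -1.23 (SE 0.16). Of all tested genes 1.56% had a more negative log2 fold change. Ncf1 was the only 1 of the 5 members whose groups did not overlap, and 21.2% of tested genes did not overlap (8.69% with every Ezh2-deficient library lower). In bulk RNA, fewer cells that express a gene and less of its RNA per cell cannot be told apart.

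The WT library with 1 floxed Ezh2 allele had the lowest Ncf1 level of its group, 52.7 CPM, against 67.9 to 96.9 CPM in the other 4 WT libraries. That genotype has a single library and so no replicate check. Left out, it moved the Ncf1 log2 fold change to -1.34, and over every library left out in turn the value lay between -1.34 and -1.13. Ncf1 (ENSMUSG00000015950; GRCm38 chromosome 5, 134220053 to 134229625, minus strand, protein coding) overlaps Gtf2ird2 on the opposite strand. The sources used here do not state whether reads were counted by strand. Gtf2ird2 was at 15.8 ± 2.20 CPM (Ezh2-deficient Tregs) against 19.5 ± 2.62 CPM (WT Tregs) (log2 fold change -0.30, adjusted p = 0.115 in edgeR's test), lower than Ncf1 in every library.

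Cyba, the partner of the catalytic core, was at 159, 206, 183 and 111 CPM in Ezh2-deficient replicates 1 to 4. WT replicates 1 to 5 had 198, 161, 282, 228 and 171 CPM. The ranges overlapped widely, with Ezh2-deficient replicate 4 lowest and WT replicate 3 highest. The means were 165 ± 40.4 CPM (Ezh2-deficient Tregs) against 208 ± 48.8 CPM (WT Tregs) (SD, n = 4 and 5; log2 fold change -0.34, SE 0.20). Without Ezh2-deficient replicate 4 the log2 fold change was -0.21. Cyba (ENSMUSG00000006519; chromosome 8, 122424776 to 122432930) overlaps the predicted gene Gm20388, which had 0 counts in all libraries.

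Ncf4, the lipid-binding adaptor gene, was at 96.1, 109, 102 and 89.5 CPM in Ezh2-deficient replicates 1 to 4. WT replicates 1 to 5 had 103, 101, 133, 117 and 80.6 CPM. All Ezh2-deficient values lay inside the WT range. The means were 99.2 ± 8.41 CPM (Ezh2-deficient Tregs) against 107 ± 19.4 CPM (WT Tregs) (log2 fold change -0.11, SE 0.13). Ncf4 (ENSMUSG00000071715; chromosome 15, 78244801 to 78262580, plus strand) overlaps no other annotated gene.

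Rac2, the GTPase gene, had the highest level of the 5. It was at 1130, 1293, 1215 and 1012 CPM in Ezh2-deficient replicates 1 to 4, against 1040, 1110, 1135, 1141 and 1014 CPM in WT replicates 1 to 5. The lowest value of each group was nearly the same, and Ezh2-deficient replicates 2 and 3 lay above all WT libraries. The means were 1163 ± 120 CPM (Ezh2-deficient Tregs) against 1088 ± 57.3 CPM (WT Tregs) (log2 fold change 0.10, SE 0.09). Rac2 (ENSMUSG00000033220; chromosome 15, 78559167 to 78572783, minus strand) lies on the same chromosome as Ncf4 and overlaps no other annotated gene.

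Cybb, the catalytic core gene, was barely detected. Ezh2-deficient replicates 1 to 4 had 47, 11, 15 and 101 counts (1.32, 0.251, 0.452 and 1.64 CPM). WT replicates 1 to 5 had 83, 54, 68, 42 and 83 counts (1.40, 1.67, 1.95, 1.11 and 1.55 CPM). Ezh2-deficient replicates 2 and 3 stood below all other libraries, and replicates 1 and 4 lay inside the WT range. The means were 0.917 ± 0.671 CPM (Ezh2-deficient Tregs) against 1.54 ± 0.311 CPM (WT Tregs) (log2 fold change -0.73, SE 0.46). The log2 fold change was -0.43 without Ezh2-deficient replicate 2 and -1.21 without Ezh2-deficient replicate 4. Cybb (ENSMUSG00000015340) spans 9435252 to 9487771 of chromosome X in GENCODE, and the RefSeq start shown above lies inside that span.

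**Figure D1:**
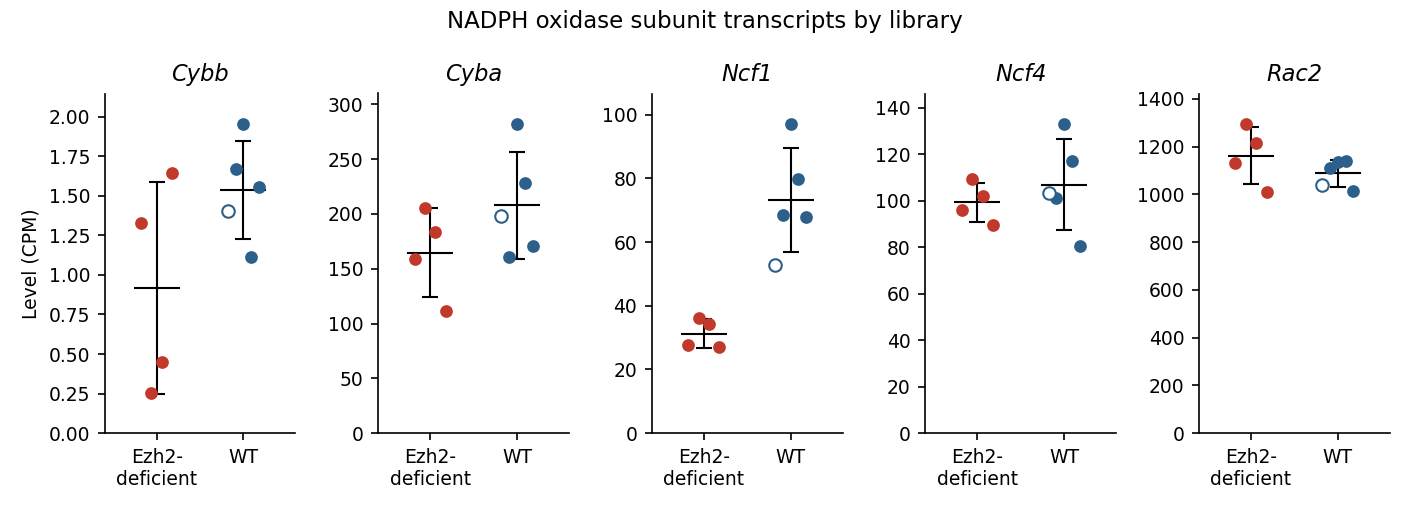
Level in CPM (linear axes from 0) of the 5 subunit genes in each library, Ezh2-deficient (red, n = 4) left of WT (blue, n = 5), with the mean and SD in black. The open circle is WT replicate 1, with 1 floxed allele. The 2 groups separate for Ncf1 (27.1 to 36.2 CPM in Ezh2-deficient, 52.7 to 96.9 CPM in WT) and overlap for the others.

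The libraries lowest in Cybb also lacked some B and CD8 T or NK cell transcripts. Ms4a1, which encodes the B cell surface protein CD20, had 0 counts in Ezh2-deficient replicates 2 and 3. In the other 7 libraries it was at 1.04 and 2.57 CPM (Ezh2-deficient) and 1.27 to 2.76 CPM (WT). Cd22 was at 0.0228 and 0.0602 CPM in Ezh2-deficient replicates 2 and 3, against 1.21 and 1.90 CPM in replicates 1 and 4. Cd79a was at 0.571 and 0.632 CPM, against 1.18 and 1.15 CPM, and Fcer2a at 0 and 0 CPM, against 0.282 and 0.927 CPM. Pax5 was also lower in replicates 2 and 3, while Blnk was near 0 in replicate 1 too. Cd79b did not follow, at 12.0 and 13.6 CPM, against 12.2 and 11.1 CPM. Ebf1 was at 2.56 and 2.56 CPM, against 2.76 and 6.88 CPM. The list of 9 B cell markers summed to 15.3 to 27.8 CPM in Ezh2-deficient libraries, against 23.2 to 27.9 CPM in WT libraries. Of its 8 tested genes 1, Cd79a, was lower and 0 were higher in edgeR's test. Of all tested genes 8.8% were lower and 13.1% higher. Cd8a, the CD8 T cell gene, was at 0.936 and 0.361 CPM in Ezh2-deficient replicates 2 and 3 and at 28.3 and 79.9 CPM in replicates 1 and 4. Among WT libraries it was lowest in replicate 3, at 1.98 CPM, where Cybb was at its highest. Gzmk, Klrk1 and Klrb1c, of cytotoxic T and NK cells, were each at 0 to 0.0228 CPM in Ezh2-deficient replicates 2 and 3. Gzmk was also at 0 CPM in WT replicate 3. Other such markers were lower but still present in Ezh2-deficient replicates 2 and 3. Cd8b1 was at 15.4 and 13.9 CPM there, against 28.8 and 50.6 CPM in replicates 1 and 4. Nkg7 was at 12.1 and 12.3 CPM, against 31.6 and 52.1 CPM. The part of B, CD8 T and NK cells in the Cybb values was not tested. Ncf1 was at 36.2 and 34.2 CPM in Ezh2-deficient replicates 2 and 3, against 27.6 and 27.1 CPM in replicates 1 and 4. Replicates 2 and 3 were also the Ezh2-deficient libraries low in hypoxia-response transcripts (below), so the 2 differences cannot be told apart. The part of B, CD8 T and NK cells in the Ncf1 values was not tested either.

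**Figure D2:**
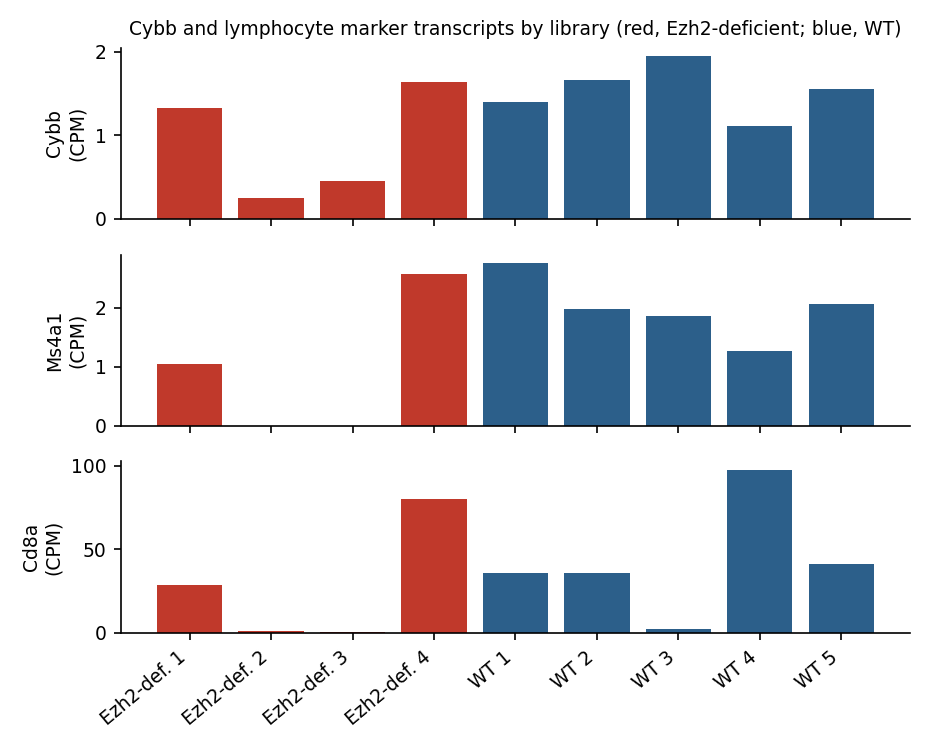
Level in CPM of Cybb, of the B cell gene Ms4a1 and of the CD8 T cell gene Cd8a in each library (bars from 0; Ezh2-deficient in red on the left, WT in blue). Ezh2-deficient replicates 2 and 3 have the lowest Cybb (0.251 and 0.452 CPM) and no Ms4a1 count.

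Markers of phagocytes, the cells best known for this oxidase, were mostly near the floor. Of 12 macrophage, monocyte and dendritic cell markers, 8 stayed under 1 CPM in every library, among them Lyz2, Csf1r, Cd14 and Spi1. The list summed to 23.9 to 31.0 CPM in Ezh2-deficient libraries, against 14.6 to 20.8 CPM in WT libraries. Of its 4 tested genes 2 were higher in edgeR's test, where 13.1% of all tested genes were higher. These 2 were the integrin gene Itgam (log2 fold change 0.80, adjusted p = 0.00817) and Adgre1 (1.75, adjusted p = 0.00515). Other members went the other way without a call. Fcer1g was at -1.59 (adjusted p = 0.135), and Cd14, too low to be tested, had 1 count over the Ezh2-deficient and 42 over the WT libraries. The part of phagocytes in the subunit values was not tested. Of 10 neutrophil markers, 5 had 0 counts in all 9 libraries (S100a9, Ngp, Elane, Retnlg and Csf3r), and Ltf alone exceeded 1 CPM, at 60.5 ± 10.9 CPM (Ezh2-deficient Tregs) against 51.1 ± 17.6 CPM (WT Tregs) (log2 fold change 0.24, adjusted p = 0.529). The neutrophil list therefore summed to 49.1 to 72.6 CPM in Ezh2-deficient libraries, against 25.7 to 72.4 CPM in WT libraries. The 9 CD8 T and NK cell markers summed to 30.6 to 220 CPM in Ezh2-deficient libraries, against 38.6 to 196 CPM in WT libraries. Of their 8 tested genes 0 were called, where 21.9% of all tested genes were called.

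Per length, the subunits spanned more than 3 orders of magnitude. RPKM, the CPM divided by the GENCODE exon length in kilobases, was computed here. In Ezh2-deficient Tregs Rac2 was at 375 ± 38.8, Cyba at 159 ± 38.9, Ncf4 at 49.1 ± 4.16, Ncf1 at 8.54 ± 1.26 and Cybb at 0.158 ± 0.116 RPKM. In WT Tregs Rac2 was at 351 ± 18.5, Cyba at 200 ± 46.9, Ncf4 at 52.9 ± 9.62, Ncf1 at 20.0 ± 4.48 and Cybb at 0.265 ± 0.0536 RPKM. The order was the same in both groups, and within each group the ranges of neighbours among the 5 did not overlap.

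The ratio of Ncf1 to Ncf4 per length is taken within a library and so does not depend on scaling. It was 0.158, 0.183, 0.185 and 0.167 in Ezh2-deficient replicates 1 to 4, against 0.282, 0.374, 0.403, 0.376 and 0.464 in WT replicates 1 to 5. The mean was 0.173 ± 0.0127 in Ezh2-deficient and 0.380 ± 0.0658 in WT Tregs, with no overlap. The same ratio for Cyba was 3.20 ± 0.549 in Ezh2-deficient and 3.77 ± 0.424 in WT Tregs and overlapped. Nrros, which encodes a negative regulator of the oxidase in phagocytes, was at 22.5 ± 4.22 RPKM in Ezh2-deficient and 20.2 ± 4.26 RPKM in WT Tregs. Ncf1 thus overlapped Nrros in WT libraries, at 14.4 to 26.5 RPKM beside 14.8 to 24.7 RPKM. In Ezh2-deficient libraries it lay below Nrros, at 7.40 to 9.89 RPKM beside 16.6 to 25.9 RPKM.

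**Figure D3:**
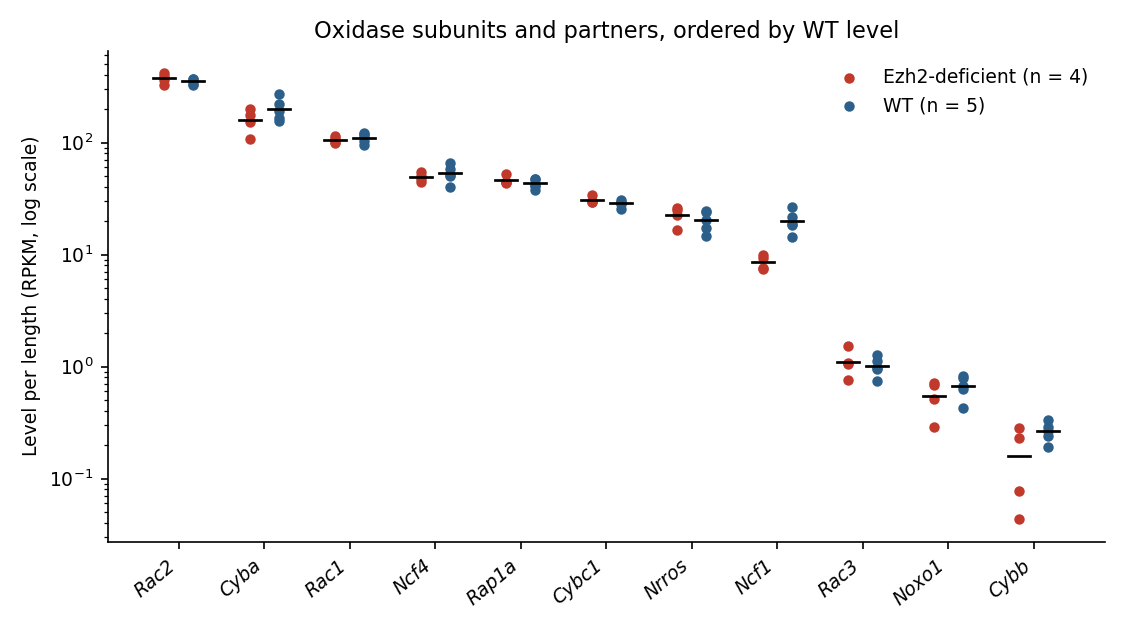
Level per length in RPKM (log axis) of the 5 subunits and of 6 partners in each library, Ezh2-deficient (red, n = 4) left of WT (blue, n = 5) for each gene, bars at the group mean, genes ordered by WT level. Rac2 is highest and Cybb lowest in both groups, and Ncf1 is the gene whose groups lie apart.

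Within the groups the members varied to different degrees. The coefficient of variation in Ezh2-deficient libraries was 73.2% for Cybb, 24.5% for Cyba, 14.7% for Ncf1, 10.4% for Rac2 and 8.48% for Ncf4. In WT libraries it was 23.5% for Cyba, 22.4% for Ncf1, 20.2% for Cybb, 18.2% for Ncf4 and 5.27% for Rac2. After the group means were removed from log2 CPM, the 6 pairs among Cyba, Ncf1, Ncf4 and Rac2 correlated at Pearson r of 0.67 to 0.81 over 9 libraries. The 4 pairs with Cybb had r of -0.78 to -0.31. These values describe 9 libraries, and the genes share library and depth.

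Libraries of both groups also split by hypoxia-response transcripts, with 5 high and 4 low scores over 22 genes. In the Ezh2-deficient group Ncf1 was at 27.1 and 27.6 CPM in the high and 34.2 and 36.2 CPM in the low libraries. In the WT group it was at 52.7 to 79.8 CPM in the 3 high and 67.9 and 96.9 CPM in the 2 low libraries. The log2 fold change was -1.30 within the high and -1.26 within the low libraries. Cybb gave 0.095 within the high and -2.35 within the low libraries, the 2 low Ezh2-deficient libraries being those without Ms4a1 counts.

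The genes whose log2 CPM followed each member most closely were sought among 10710 protein-coding genes over the 9 libraries. For Ncf1 they were Lipt1, Ecd and Mfsd10 (r = 0.99, 0.99 and 0.99). For Cybb they included Zfp597 and the B cell gene Ms4a1 (0.97 and 0.96). Ms4a1 had 0 counts in the libraries lowest in Cybb, Ezh2-deficient replicates 2 and 3. WT replicate 1 had the highest Ms4a1 (2.76 CPM), with Cybb at 1.40 CPM, below the WT mean of 1.54 CPM. With the group means removed, Ms4a1 was not among the 3 genes nearest to Cybb. Cyba was nearest to Uqcr10, Gtf2i and Stk11 (0.98, 0.98 and 0.97), Ncf4 to Ccdc88b and Cebpb (0.99 and 0.98), and Rac2 to Micall1, Zfp710 and Mical3 (0.94, 0.94 and 0.92). With the group means removed, the nearest gene was Fads6 for Ncf1, Etfrf1 for Cybb, Ptpn18 for Cyba, Ccdc88b for Ncf4 and Neurl4 for Rac2 (0.98, 0.98, 0.99, 0.99 and 0.98). Ccdc88b was nearest to Ncf4 by both measures. With so many genes and 9 libraries, high values of r are common, and they say nothing of shared function.

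None of the other oxidase family genes that could be tested was called. Of 15 listed, 7 were tested, and edgeR called 0, where 21.9% of all tested genes were called. At an unadjusted p under 0.05 there were 0, where 5069 of 13685 tested genes were under it. DESeq2 and limma-voom also called 0. The median log2 fold change of the 7 genes was 0.10, and that of all genes tested was 0.00. Rac1, the ubiquitous Rac GTPase, was at 475 ± 34.2 CPM (Ezh2-deficient Tregs) against 496 ± 50.8 CPM (WT Tregs) (log2 fold change -0.06, adjusted p = 0.667). Cybc1, whose product the core needs to mature, averaged 130 ± 9.83 CPM (Ezh2-deficient) against 120 ± 8.93 CPM (WT; 0.10, adjusted p = 0.364). Rap1a, a GTPase found with the core, averaged 121 ± 10.8 CPM (Ezh2-deficient) against 112 ± 10.8 CPM (WT; 0.10, adjusted p = 0.432). Nrros (0.16, adjusted p = 0.521), Rac3 (0.12, adjusted p = 0.798) and the colon organiser gene Noxo1 (-0.27, adjusted p = 0.547) did not pass either. Rac1, Cybc1, Rap1a and Noxo1 overlap other annotated genes.

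The other catalytic subunits were at or near the floor. Nox3, Nox4 and Duox1 had 0 counts in all 9 libraries. At these depths 3 counts, the limit that 0 allows, stand for 0.0482 to 0.089 CPM in Ezh2-deficient libraries, against 0.0502 to 0.0924 CPM in WT libraries. Duox2, Duoxa1 and Duoxa2 had 1 to 2 counts in all. Nox1, the colon homologue, had 38 counts over the Ezh2-deficient and 14 over the WT libraries, and its activator gene Noxa1 had 33 over the Ezh2-deficient and 35 over the WT libraries. Both were too low to be tested. Cybb, at about 1 CPM, was the highest of the catalytic subunit genes measured.

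Genes of proteins that act on the oxidase were called upward more often than downward. Of 25 listed kinases, Rac exchange factors and other regulators, 24 were tested, 9 rose and 0 fell, where 13.1% of all tested genes rose. At an unadjusted p under 0.05, 9 were higher and 3 lower, where 5069 of 13685 tested genes were under it in either direction. DESeq2 called 9 higher and 2 lower, and limma-voom 9 and 0. In edgeR, 2 were lower with RLE scaling, total-count scaling or the hypoxia score as covariate. With upper-quartile scaling, no filter or the replicate block 1 was lower. Leaving out Ezh2-deficient replicate 2 or WT replicate 5 gave 2 lower, and Ezh2-deficient replicate 4 or WT replicate 2 gave 1. The high hypoxia score libraries alone also gave 1 lower. The median of the list was 0.06. Pak1, a Rac-activated kinase that phosphorylates the organiser, rose to 8.82, 8.15, 9.995 and 11.9 CPM in Ezh2-deficient replicates 1 to 4, against 1.17, 2.65, 2.81, 2.59 and 2.43 CPM in WT replicates 1 to 5 (log2 fold change 2.07, SE 0.24, adjusted p = 0.000187). Every Ezh2-deficient library was above every WT library, as for 12.5% of all tested genes. Prkcb, a protein kinase C of the same step, rose to 82.2 ± 3.44 CPM, against 52.4 ± 6.41 CPM in WT Tregs (0.65, adjusted p = 0.000701).

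The exchange factor gene Prex1, which loads Rac2 with GTP in neutrophils, rose to 337 ± 51.3 CPM, against 218 ± 20.1 CPM in WT Tregs (log2 fold change 0.63, adjusted p = 0.00161). Prkcq, the protein kinase C of the T cell synapse, rose by 0.54 (adjusted p = 0.00299). Arhgap15, which turns Rac off, rose by 0.51 (adjusted p = 0.00684), and the p38 kinase gene Mapk14 by 0.40 (adjusted p = 0.0131). Among regulators named after their values were seen, the tyrosine kinase gene Syk rose to 138 ± 28.0 CPM, against 56.5 ± 26.2 CPM in WT Tregs (1.29, adjusted p = 0.0184). Prkcz and Vav3 made up the 9 (0.67 and 0.34; adjusted p = 0.0167 and 0.0377). Dock2, Vav1, Prkcd, Hvcn1 and the inhibitor genes Arhgdia and Arhgdib did not pass. Without Ezh2-deficient replicate 3 the list had 5 calls. Mapk14, Syk and Prkcz missed the threshold in that fit (adjusted p = 0.0608, 0.0558 and 0.0518). With no filter on low counts Syk and Vav3 missed it too (adjusted p = 0.0558 and 0.0545). Vav3 did so when any of Ezh2-deficient replicates 1 to 3 or WT replicates 2 to 5 was left out (adjusted p = 0.0561 to 0.147).

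Enzymes that supply NADPH, the electron donor, fell where they were called. Of 16 listed and tested, 6 fell and 0 rose, where 8.8% of all tested genes fell. At an unadjusted p under 0.05, 7 were lower and 0 higher, where 5069 of 13685 tested genes were under it in either direction. DESeq2 and limma-voom each called 6 lower and 0 higher. The list's median was -0.25. G6pdx, the entry enzyme of the pentose phosphate pathway, fell to 77.9 ± 4.35 CPM, against 99.2 ± 5.47 CPM in WT Tregs (log2 fold change -0.35, SE 0.07, adjusted p = 0.00618). Pgd, the other NADPH-forming enzyme of that pathway, fell to 124 ± 17.5 CPM, against 192 ± 23.7 CPM in WT Tregs (-0.62, adjusted p = 0.00282). Rpia and Tkt, which interconvert its sugars, fell by 0.76 and 0.56 (adjusted p = 0.000701 and 0.00504). The mitochondrial folate enzyme gene Mthfd2 and the NAD kinase gene Nadk fell by 0.30 and 0.29 (adjusted p = 0.0234 and 0.0287). All 4 Ezh2-deficient libraries were below all WT libraries for each of the 6, as for 8.69% of all tested genes. The 6 were picked by calls on these same values, so this is no further support. The NADPH-forming enzymes Me1, Idh1 and Idh2 did not pass (0.47, -0.25 and -0.20). Without Ezh2-deficient replicate 1 the list had 4 calls, and Mthfd2 and Nadk missed the threshold (adjusted p = 0.0544 and 0.0654). Nadk also missed it without Ezh2-deficient replicate 4 (adjusted p = 0.0545).

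Genes that remove superoxide and peroxide moved both ways. Of 27 listed, 26 were tested, 3 rose and 5 fell, where 13.1% of all tested genes rose and 8.8% fell. The median was -0.18, and DESeq2 called 4 higher and 9 lower. Gpx1, a glutathione peroxidase that reduces hydrogen peroxide, fell to 87.8, 106, 88.3 and 65.1 CPM in Ezh2-deficient replicates 1 to 4, against 141, 129, 206, 142 and 140 CPM in WT replicates 1 to 5 (log2 fold change -0.80, SE 0.16, adjusted p = 0.00479). The groups did not overlap, and 8.69% of all tested genes had every Ezh2-deficient library lower. The peroxiredoxin gene Prdx2 fell by 0.46 and the thioredoxin gene Txn1 by 0.26 (adjusted p = 0.0124 and 0.0204). Txnip, which binds and restrains thioredoxin, rose to 665 ± 66.2 CPM, against 372 ± 74.1 CPM in WT Tregs (0.84, adjusted p = 0.0019). Gclc, the catalytic subunit for glutathione synthesis, rose by 0.54, and Nfe2l2, the transcription factor of the antioxidant response, by 0.39 (adjusted p = 0.0157 and 0.0172). Named after their values were seen, Sod2 and Gpx4 also fell (-0.31 and -0.39; adjusted p = 0.0393 and 0.0209), while the cytosolic superoxide dismutase gene Sod1 and the catalase gene Cat did not pass (0.22 and -0.04). Without Ezh2-deficient replicate 3 the list had 4 calls, and Gclc, Nfe2l2, Txn1 and Gpx4 missed the threshold (adjusted p = 0.0666, 0.0742, 0.061 and 0.0527). Nfe2l2 also missed it without Ezh2-deficient replicate 1 (adjusted p = 0.0769), and Sod2 when Ezh2-deficient replicate 2, Ezh2-deficient replicate 4 or any of WT replicates 3 to 5 was left out (adjusted p = 0.0582 to 0.0772).

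**Figure D4:**
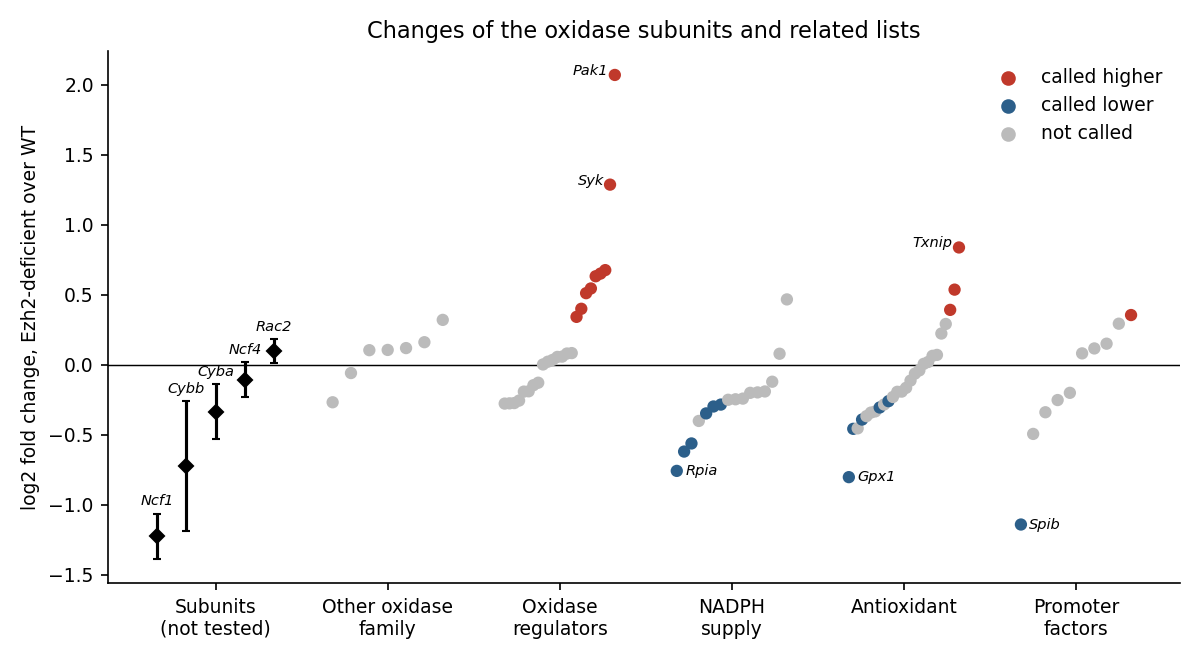
Log2 fold change, Ezh2-deficient over WT, of the 5 subunits (black, with SE, not tested) and of each tested gene of 5 lists, coloured by edgeR's call. The 9 regulators called with the scaling shown (TMM) lie above 0, with Pak1 at 2.07, though other scalings add 1 or 2 lower calls, and all called NADPH supply genes lie below 0, with Rpia at -0.76.

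Among transcription factors known from phagocyte oxidase promoters the share of calls was near that of all genes. Of 15 listed, 10 were tested, 1 rose and 1 fell, which is 20% called, against 21.9% of all tested genes. Spi1, which encodes PU.1, was under 1 CPM in every library and was not tested. Its relative Spib was at 0.766 ± 0.249 CPM (Ezh2-deficient Tregs) against 1.72 ± 0.769 CPM (WT Tregs) (log2 fold change -1.14, adjusted p = 0.0468), with overlap. The Spib call was lost without any of Ezh2-deficient replicates 1, 2 or 3 or WT replicates 2, 3 or 5 (adjusted p = 0.0672 to 0.101), and with the hypoxia score as covariate or limma-voom (adjusted p = 0.0575 and 0.0888). Irf2 rose to 121 ± 5.28 CPM, against 94.9 ± 10.6 CPM in WT Tregs (0.35, adjusted p = 0.0144), a call lost without Ezh2-deficient replicate 3 or 4 (adjusted p = 0.0616 and 0.0538). Rela, Nfkb1 and Runx1 did not pass (-0.25, -0.20 and 0.15; adjusted p = 0.0536, 0.0699 and 0.281). Rela passed when Ezh2-deficient replicate 2, WT replicate 1 or WT replicate 5 was left out (adjusted p = 0.0454, 0.05 and 0.0238), and Nfkb1 without WT replicate 3 (adjusted p = 0.0479). With all libraries Rela also passed with RLE scaling, total-count scaling, the hypoxia score as covariate and DESeq2 (adjusted p = 0.0458, 0.0424, 0.0466 and 0.0267). Nfkb1 passed with upper-quartile scaling, total-count scaling and DESeq2 (adjusted p = 0.0483, 0.0378 and 0.0167). Irf8, a myeloid and B cell factor, ranged from 32.1 to 85.3 CPM in Ezh2-deficient Tregs and from 31.8 to 121 CPM in WT (-0.34, adjusted p = 0.578). Within the 4 libraries of low hypoxia score, edgeR called 2 regulators, 2 NADPH supply genes, 0 antioxidant genes and 0 promoter factors. Over all genes it called 570 of 13787 in these libraries. At an unadjusted p under 0.05 they gave 9 higher and 1 lower regulator, and 0 higher and 6 lower supply genes. They also gave 3 higher and 5 lower antioxidant genes, and 1 higher and 1 lower promoter factor. The share of all genes under that unadjusted cut in these libraries is not given here.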

How the data were processed

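For 9 stranded mRNA libraries the authors deposited raw gene counts, and the submitters' processing notes name STAR and GRCm38. The sources used here do not name the counter, whether it used strand, or the annotation it used. The series' design text calls the samples biological replicates. Where cultures do not come from separate mice, p-values measure only the spread between these samples. Symbols, positions and exon lengths came from GENCODE M21, which held 42462 of 43432 identifiers. Replicate libraries differed by a chi-square of at least 21.9 per degree of freedom, so none was counted as a duplicate.

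Genes passing edgeR's default filter (13685) were tested in 1 quasi-likelihood fit with robust dispersion and TMM scaling (edgeR 4.0.16, R 4.3.3), Benjamini-Hochberg adjusted over all of them, two-sided, threshold 0.05. SE is the log2 fold change divided by the root of F. Log2 CPM used a prior count of 2. The fit was tested on simulated data. No molecular identifiers were used, so the limit from 0 counts covers counting error only.

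The members, lists, named-gene rule and alternatives were chosen with earlier results of these data known. Named genes were the members, the family genes with a count, up to 6 genes of each other list with the smallest adjusted p, the 3 nearest genes per member (protein-coding, mean of at least 1 CPM, predicted genes left out), Ezh2 and markers. Other list genes that did not pass, such as Dock2, Idh1, Sod1 and Irf8, were named after their values were seen. Some genes that the rule names are not reported here. Alternatives were RLE, upper-quartile and total-count scaling, 2 other filters, DESeq2 1.42.0, limma-voom (limma 3.58.1), a replicate block, each library left out, the hypoxia score as covariate, and each hypoxia class alone, split at the largest gap in the mean log2 CPM of 22 genes.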

Additional observations from a re-analysis of the deposited data

Results flagged for a closer look

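A library stood far from the others of its group, by the size of its gap relative to the group's range, in 5 of 88 groups checked. Chance alone flags about 1 in 20 groups. The groups share the same 9 libraries and are not independent, and the number was not tested against chance. Rap1a was at 137 CPM in Ezh2-deficient replicate 4, against 114 to 116 CPM in the other 3. Cybc1 was at 144 CPM in the same library, against 123 to 126 CPM in the others, and Spib at 1.14 CPM there, against 0.617 to 0.677 CPM. Pak1 was at 1.17 CPM in WT replicate 1, which carries 1 floxed allele, against 2.43 to 2.81 CPM in the other 4 WT libraries. Gpx1 was at 206 CPM in WT replicate 3, against 129 to 142 CPM in the others. None of these 5 was a member of the subunit set.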

How the results depend on the processing

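The log2 fold change of Ncf1 stayed between -1.34 and -1.13 over the 20 alternatives run, and those of Cyba and Ncf4 stayed below 0 in all 20. Within the high hypoxia score libraries Cybb was at 0.095, Rac2 at -0.040 and Nrros at -0.17. In edgeR's test 6 regulators were called higher and 1 lower there, and 5 NADPH supply genes lower. The calls also numbered 2 antioxidant genes, 1 promoter factor and 1764 of 13999 genes tested. Within the low ones Cybb was at -2.35 and Rac3 at -0.085, and the calls numbered 2 regulators, 2 NADPH supply genes, 0 antioxidant genes (3 higher and 5 lower at an unadjusted p under 0.05), 0 promoter factors (1 higher and 1 lower) and 570 of all genes in edgeR's test. Fewer libraries entered both fits. Antioxidant calls numbered 13 with the hypoxia score as covariate and 13 by DESeq2, and promoter factor calls 4 by total-count scaling, 4 by DESeq2 and 1 by limma-voom. With each library left out in turn the calls were 1972 to 3168 over all genes (1972 without Ezh2-deficient replicate 3), 5 to 10 regulators, 4 to 11 antioxidant genes and 0 to 3 promoter factors. Rac3 was at -0.10 without Ezh2-deficient replicate 1 and at up to 0.25 with another library left out. The cause was not tested. Scaling moved the median of all genes to no lower than -0.03.

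No pairing by replicate number was seen. Deviations of same-numbered libraries correlated at 0.15, -0.08, 0.11 and 0.19, and 0 of 4 Ezh2-deficient libraries correlated best with its own number. Each correlated best with a WT library of its own hypoxia class, so this check cannot exclude a pairing hidden beneath that split. With the replicate number as a block 2751 genes were called, Ncf1 was at -1.23, and Txn1, Nadk, Spib, Vav3, Sod2 and Gpx4 missed the threshold. Depth limits Cybb most, with 11 to 101 counts per library.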
